A study of Schizosaccharomyces pombe with 12 samples.

Results

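The response of wild-type fission yeast to heat was described from 4 of the 12 RNA-seq libraries analysed here, chosen by their labels: the 2 libraries of wild-type cells labelled 37°C and the 2 of wild-type cells labelled 30°C. Cells were grown with shaking at 30°C or placed at 37°C for 2 hours, and total RNA of whole cells was made into strand-specific mRNA libraries. The other 8 libraries are 2 at each temperature from lsd1-ΔHMG, in which the C-terminal part of the demethylase Lsd1 with its DNA-binding HMG domain is truncated, and 2 at each temperature from set1Δ, which lacks the histone H3K4 methyltransferase Set1. The series was made to ask how Set1, Clr4 and the demethylases Lsd1 and Lsd2 regulate each other, and the wild-type pair of conditions is the reference for heat in that design. The strains were represented by 2 independently derived biological replicates per genotype, and nothing further is given on what separates the replicates at each temperature.

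A level is given in CPM, the count per library size after edgeR's TMM normalization, and it is not corrected for gene length, so levels of different genes are not compared. A change is the log2 fold change of the libraries labelled 37°C over those labelled 30°C. Higher and lower refer throughout to these labels. A feature was called when edgeR's quasi-likelihood test gave a Benjamini-Hochberg adjusted p under 0.05 over all features tested and the log2 fold change was at least 1 in either direction.

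The temperature labels were first checked against hsp16 (SPBC3E7.02c), which encodes a small heat shock protein and is a usual marker of heat in fission yeast. It was higher in the wild-type libraries labelled 30°C, opposite to what a heat marker does in heated cells. Its level was 39423 and 36205 CPM in the libraries labelled 30°C and 4533 and 5798 CPM in those labelled 37°C, and the groups did not overlap. The means were 37814 ± 2275 CPM (SD, n = 2) and 5166 ± 894 CPM (SD, n = 2), so hsp16 fell between these labels (log2 fold change -2.87, standard error 0.17, adjusted p = 7.3e-09). In the mutants the labels and the gene went the other way. The level in lsd1-ΔHMG was 2261 and 2179 CPM at 30°C and 3968 and 5094 CPM at 37°C, and in set1Δ it was 829.7 and 727 CPM at 30°C and 15391 and 19026 CPM at 37°C, with log2 fold changes of 1.03 in lsd1-ΔHMG and 4.47 in set1Δ. What lies behind this was not tested, and wild-type values are therefore given by label.

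In fission yeast, heat and other stresses are met by several regulators. The heat shock factor Hsf1 drives chaperone genes whose products refold or hold unfolded proteins. The mitogen-activated protein kinase Sty1 and its transcription factor Atf1 drive a common set of stress genes for antioxidant enzymes, glycerol and trehalose. Many of the same promoters also answer to glucose: when glucose is plentiful, protein kinase A and the repressor Scr1 keep genes such as fbp1 and inv1 off, and they come on when glucose runs low.

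The 4 wild-type libraries held between 27642384 and 32966266 counts, and all 12 held between 27642384 and 34843653. The correlation of log2 CPM between replicates was 0.998 at either label. The 50 most abundant features took 21.9% and 21.1% of the counts in the wild-type libraries labelled 30°C and 14.3% and 15.7% in those labelled 37°C. The p-values rest on the spread between replicates over all 12 libraries, those of the mutants included, and measure no other spread.

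Of 6904 features tested, 1481 (21.5%) were called, and the loss was broader and deeper than the gain. Among them, 383 features (5.55% of those tested) were higher at 37°C, against 1098 (15.9%) lower. Counts of calls in the lists below are to be read against these 2 shares. A log2 fold change of 2 or more was reached by 45 features in the upward direction and one of -2 or less by 403. The adjusted p alone was under 0.05 for 4990 features, so the limit on the fold change decided most calls. The groups of 2 and 2 libraries did not overlap in any of the 1481 called features. This is common here and marks no gene out. Of the 6904 features tested, both libraries labelled 37°C lay above both labelled 30°C in 2903 and below both in 3236. The features called lower had taken 27.1% and 25.1% of all counts in the libraries labelled 30°C and took 7.15% and 7.60% in those labelled 37°C. The median log2 fold change over all tested features was -0.041. With offsets that take out each library's trend with GC content and gene length, 562 features were higher and 890 lower, a share of 38.7% higher in place of 25.9%. In whole cultures like these, fewer cells in a given state and less RNA per cell cannot be told apart.

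**Figure D1:**
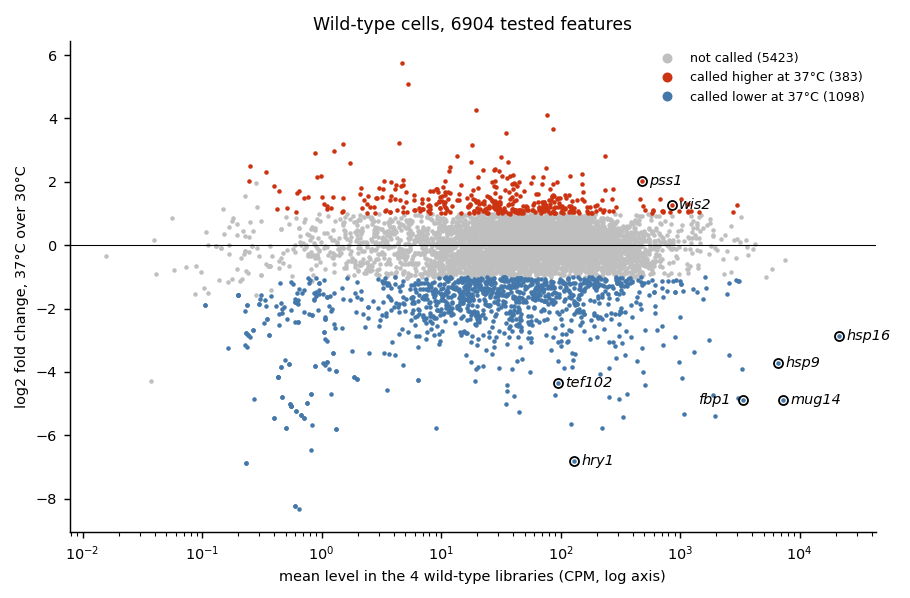
Mean level in the 4 wild-type libraries (CPM, log axis) against the log2 fold change of the libraries labelled 37°C over those labelled 30°C for 6904 features, each a point: 383 called higher, 1098 called lower and 5423 not called, with 8 genes circled. The lower calls reach further from 0 than the higher ones and include abundant RNAs such as that of hsp16.

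The chaperone genes did not move as one group. 3 of 5 genes for small heat shock proteins and disaggregases were lower at 37°C and none higher, 3 of 6 Hsp70 and Hsp110 genes were lower and 1 higher, and 4 of 6 genes of Hsp90 and its co-chaperones were higher and none lower. Besides hsp16, the lower small heat shock gene was hsp9 (SPAP8A3.04c), which encodes a small stress protein. Its level was 12912 and 11857 CPM in the libraries labelled 30°C and 883 and 981 CPM in those labelled 37°C (log2 fold change -3.73, standard error 0.17, adjusted p = 8.6e-10). The disaggregase gene hsp104 (SPBC16D10.08c), whose product pulls proteins out of aggregates, had 86.4 and 84.8 CPM in the libraries labelled 30°C and 30.3 and 28.6 CPM in those labelled 37°C (log2 fold change -1.54, adjusted p = 5.3e-09). Both genes fell with no overlap between the labels. The mitochondrial disaggregase gene hsp78 had a log2 fold change of -0.61 (adjusted p = 8.6e-05) and hsp20 one of 0.18 (adjusted p = 0.098), and neither reached the limit. Summed over the 5 genes, the level was 53675 and 49332 CPM in the libraries labelled 30°C and 6489 and 7849 CPM in those labelled 37°C, most of it hsp16.

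The cytosolic Hsp70 genes fell while the Hsp110 gene rose. Hsp70 proteins bind exposed stretches of unfolded chains, and Hsp110 proteins release ADP from Hsp70 so that it can let go of its client. The Hsp70 gene ssa2 (SPCC1739.13) had 296 and 326 CPM in the libraries labelled 30°C and 63.9 and 71.2 CPM in those labelled 37°C (log2 fold change -2.20, adjusted p = 6.4e-08). Its relative ssa1 (SPAC13G7.02c) had 119 and 111 CPM in the libraries labelled 30°C and 31.3 and 37.0 CPM in those labelled 37°C (log2 fold change -1.75, adjusted p = 2.0e-08). For sks2 (SPBC1709.05), which encodes an Hsp70 that works on chains leaving the ribosome, the values were 222 and 239 against 87.2 and 93.8 CPM (log2 fold change -1.35), a call that was lost with the offsets for GC content and length (-0.41). By contrast pss1 (SPAC110.04c), the Hsp110 gene, had 186 and 195 CPM in the libraries labelled 30°C and 802 and 739 CPM in those labelled 37°C (log2 fold change 2.02, standard error 0.12, adjusted p = 1.1e-08). It had the highest log2 fold change of all protein-coding genes that met the rule for named genes. The Hsp70 genes of mitochondria and of the endoplasmic reticulum, ssc1 and bip1, had log2 fold changes of -0.024 and 0.35 and were not called. Reads of the closely similar ssa genes can be divided between them, so their separate values are uncertain.

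The genes that help Hsp90 rose, while hsp90 itself was not called. The cyclophilin gene wis2 (SPAC1B3.03c), whose product binds Hsp90, had 478 and 527 CPM in the libraries labelled 30°C and 1199 and 1199 CPM in those labelled 37°C (log2 fold change 1.25, adjusted p = 2.7e-08). For wos2 (SPAC9E9.13), which encodes a p23-type co-chaperone, the levels were 640.2 and 715 against 1625 and 1689 CPM (log2 fold change 1.29). The gene aha1 (SPBC1711.08), for an activator of the Hsp90 ATPase, had 63.7 and 64.2 against 142 and 143 CPM (log2 fold change 1.16), and sti1 (SPCC645.14c), for the adaptor that links Hsp70 to Hsp90, had 143 and 155 against 317 and 298 CPM (log2 fold change 1.04). In all 4 genes both libraries labelled 37°C lay above both labelled 30°C. The Hsp90 gene hsp90 (SPAC926.04c) had 272 and 294 against 204 and 215 CPM (log2 fold change -0.43, adjusted p = 0.013), and cdc37, for the co-chaperone that brings kinases to Hsp90, had a log2 fold change of 0.54. Outside these families, 1 of 9 J protein and nucleotide exchange genes was called, mdj1 of mitochondria (log2 fold change 1.48), and 1 of 10 chaperonin genes, hsp10 (SPCC550.06c), the lid of the mitochondrial chaperonin, with 1712 and 1783 against 4161 and 4228 CPM (log2 fold change 1.26). The gene of Hsf1 itself had a log2 fold change of -0.033.

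**Figure D2:**
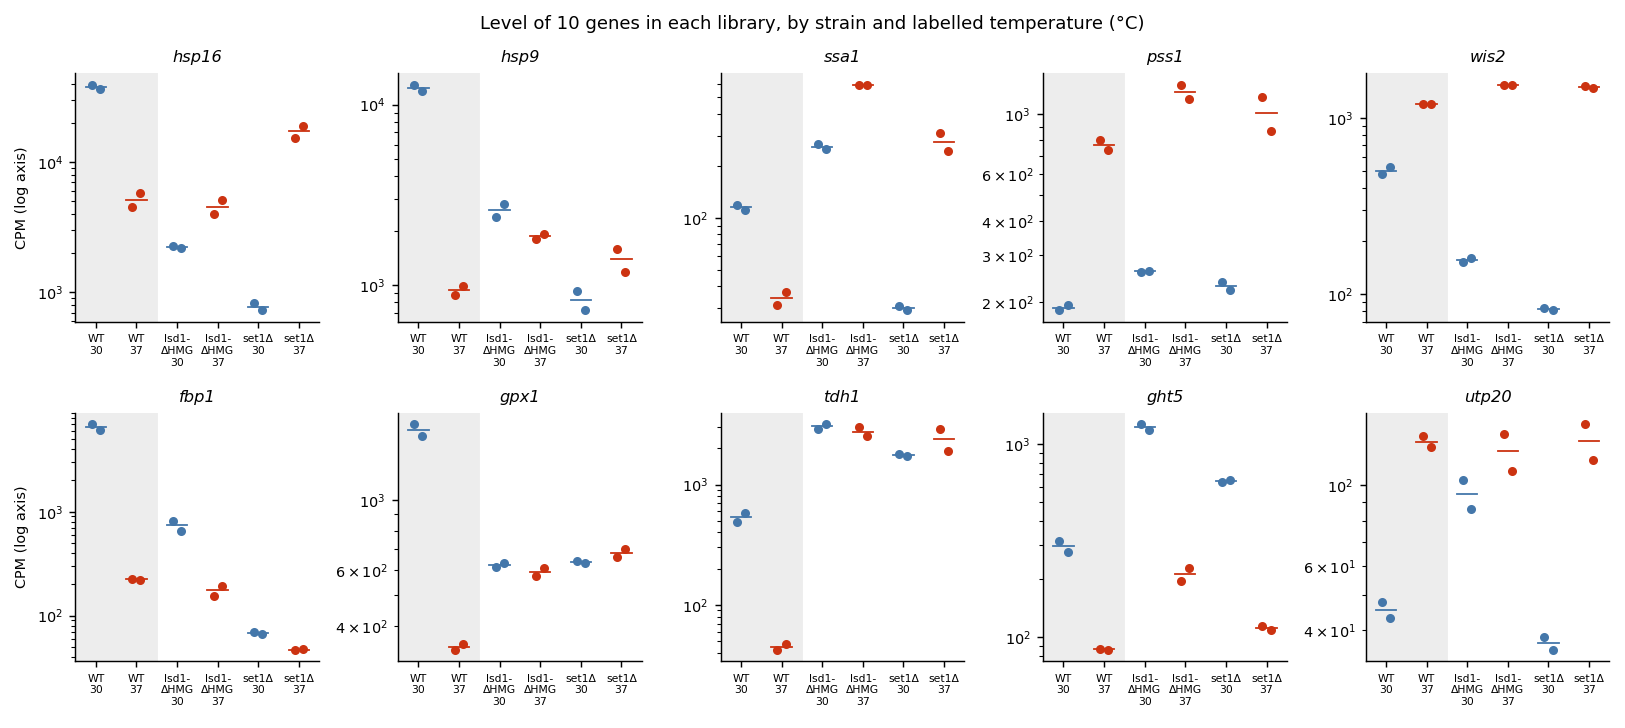
Level (CPM, log axis) of 10 genes in the 12 libraries, grouped by strain and labelled temperature: each point is a library, each line the mean of a group of 2, and the grey band marks wild-type. In wild-type hsp16, hsp9, ssa1, fbp1, gpx1, tdh1 and ght5 are lower in the libraries labelled 37°C, while pss1, wis2 and utp20 are higher.

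Targets of the Sty1-Atf1 pathway were lower together at 37°C. Of 13 tested targets, 9 fell and none rose, against 15.9% lower and 5.55% higher over all features. Their median log2 fold change was -1.75 against -0.041 over all features. Summed over the list, the level was 30539 and 27453 CPM in the libraries labelled 30°C and 3627 and 4096 CPM in those labelled 37°C. The metallothionein gene zym1 (SPAC22H10.13), whose product binds metals, had 3910.1 and 3374 CPM in the libraries labelled 30°C and 133 and 143 CPM in those labelled 37°C (log2 fold change -4.72, adjusted p = 1.5e-11). The catalase gene ctt1 (SPCC757.07c), for the enzyme that splits hydrogen peroxide, had 22.1 and 21.6 CPM in the libraries labelled 30°C and 5.71 and 5.27 CPM in those labelled 37°C (log2 fold change -1.99, adjusted p = 2.0e-08). For the glutathione peroxidase gene gpx1 (SPBC32F12.03c) the levels were 1738 and 1586 against 336 and 352 CPM (log2 fold change -2.27, adjusted p = 1.7e-10). All 3 had clear gaps between the labels. The remaining lower targets were fbp1, hsp9, pyp2, gpd1, ntp1 and gst2. Those not called were atf21 (-0.61), srx1 (0.44), tps1 (0.57) and cta3 (0.61).

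A wider list of 19 genes of stress and nutrient signalling, which holds the components of the pathway with Hsf1, the peroxide regulators and the glucose regulators, had 7 lower members, none higher and 12 not called. With the offsets 5 were lower. The gene of the tyrosine phosphatase Pyp2, which switches Sty1 off and is itself a target of the pathway, had 38.9 and 32.4 CPM in the libraries labelled 30°C and 3.53 and 4.59 CPM in those labelled 37°C (log2 fold change -3.14, adjusted p = 1.1e-09). The transcription factor gene atf1 (SPBC29B5.01) had 43.4 and 41.9 CPM in the libraries labelled 30°C and 12 and 12.9 CPM in those labelled 37°C (log2 fold change -1.78, adjusted p = 4.4e-09). Upstream of Sty1, the genes of the kinases Wis4 (SPAC9G1.02) and Wis1 (SPBC409.07c) had log2 fold changes of -2.09 and -1.07, and the second was under the limit with the offsets (-0.63). The other lower members were pyp1 (-1.44), for a second phosphatase of Sty1, srk1 (-1.49), for a kinase that Sty1 phosphorylates, and scr1 (-1.37; -0.88 with the offsets), for the glucose repressor. The gene of Sty1 itself (-0.19), pap1 (-0.044), for a factor that answers to peroxide, and pka1 (-0.33), for protein kinase A, were not called.

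Of 19 tested redox defence genes 5 were lower and none higher, against 15.9% lower and 5.55% higher over all features. Of these gpx1, ctt1 and gst2 are also among the Sty1-Atf1 targets above, and sod2 and pmd1 are not. The gene sod2 (SPAC1486.01), for the mitochondrial superoxide dismutase, had 1427 and 1325 CPM in the libraries labelled 30°C and 602 and 647 CPM in those labelled 37°C (log2 fold change -1.14, adjusted p = 2.7e-07). The thioredoxin reductase gene trr1 (-0.64), the peroxiredoxin gene tpx1 (-0.59), the thioredoxin gene trx1 (-0.31) and the cytosolic dismutase gene sod1 (-0.12) had smaller values and were not called. In tpx1 the direction turned with the offsets, to 0.67.

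Genes of trehalose and glycerol metabolism were lower in 7 of 9 cases, against 15.9% of all features, with a median log2 fold change of -1.17. Both compounds protect cells against heat and osmotic stress. The glycerol-3-phosphate dehydrogenase gene gpd1 (SPBC215.05) had 203 and 199 CPM in the libraries labelled 30°C and 57.5 and 61.8 CPM in those labelled 37°C (log2 fold change -1.75, adjusted p = 2.2e-07). The trehalase gene ntp1, the trehalose phosphatase gene tpp1, the glycerol dehydrogenase gene gld1, the dihydroxyacetone kinase genes dak1 and dak2 and gut2, for the mitochondrial glycerol-3-phosphate dehydrogenase, fell by between 1.05 and 1.71 on the log2 scale. The trehalose phosphate synthase gene tps1 had 88.7 and 88.0 against 134 and 128 CPM (log2 fold change 0.57, adjusted p = 5.5e-04) and the second dehydrogenase gene gpd2 a log2 fold change of 0.63, and neither was called. With the offsets 2 of the 7 calls, gpd1 and dak1, were kept.

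The genes fbp1, inv1 and agl1, which fission yeast keeps off in glucose, were lower. The gene fbp1 (SPBC1198.14c) encodes fructose-1,6-bisphosphatase, an enzyme of gluconeogenesis. Its level was 7009 and 6117 CPM in the libraries labelled 30°C and 227 and 220.3 CPM in those labelled 37°C (log2 fold change -4.87, standard error 0.15, adjusted p = 1.9e-11). The invertase gene inv1 (SPCC191.11), for the secreted enzyme that splits sucrose, had 212 and 186 CPM in the libraries labelled 30°C and 13.4 and 13.4 CPM in those labelled 37°C (log2 fold change -3.89, adjusted p = 3.7e-11). The alpha-glucosidase gene agl1, for the use of maltose, had 105 and 96.6 against 12.7 and 11.6 CPM (log2 fold change -3.05, adjusted p = 1.9e-09). None of these genes overlapped between the labels. An upstream non-coding RNA of fbp1, fbp1-ot2 (SPNCRNA.1326), fell with the gene, from 20.2 and 15.5 CPM to 0.335 and 0.312 CPM (log2 fold change -5.76, adjusted p = 5.6e-09).

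In the family of hexose transporters, 5 of 8 tested ght genes were lower. The gene ght5 (SPCC1235.14), for the main high-affinity glucose transporter, had 316 and 277 CPM in the libraries labelled 30°C and 87.2 and 86.1 CPM in those labelled 37°C (log2 fold change -1.77, adjusted p = 2.6e-09). For ght3 the levels were 582 and 499 against 77.8 and 69.1 CPM (log2 fold change -2.88), and for ght7, ght2 and ght8 the log2 fold changes were -1.83, -1.22 and -1.06, the last under the limit with the offsets (-0.77). The genes ght1 (-0.80), ght4 (-0.71) and ght6 (0.092) were not called. With inv1 and agl1, 7 of 10 genes of sugar uptake and hydrolysis were lower and none higher.

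Mitochondrial energy metabolism was lower in part. Of 12 citric acid cycle genes 9 fell, against 15.9% of all features, with a median log2 fold change of -1.39. The fumarase gene fum1 (SPCC18.18c) had 42.2 and 46.6 CPM in the libraries labelled 30°C and 5.28 and 6.71 CPM in those labelled 37°C (log2 fold change -2.90, adjusted p = 5.9e-09), and the aconitase gene aco1 (SPAC24C9.06c) had 153 and 151 CPM in the libraries labelled 30°C and 18.1 and 23.0 CPM in those labelled 37°C (log2 fold change -2.89, adjusted p = 3.0e-09). Both genes were clearly apart between the labels. With the offsets 7 of the 9 were still lower. The citrate synthase gene cit1, at the entry of the cycle, had a log2 fold change of -1.59. Among 31 nuclear genes of the respiratory chain and ATP synthase, 10 were lower and none higher, from atp1 (-2.07), for a catalytic-head subunit of ATP synthase, and qcr2 (-1.62), for a core subunit of complex III, to sdh1 (-1.05), which is also a citric acid cycle gene. The median of all 31 was -0.64, and over all features 15.9% were lower.

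Glycolysis and fermentation had a low median log2 fold change, -2.33, with 14 of 17 tested genes lower and 1 higher. The glyceraldehyde-3-phosphate dehydrogenase gene tdh1 (SPBC32F12.11) had 485 and 580.1 CPM in the libraries labelled 30°C and 42.4 and 47.5 CPM in those labelled 37°C (log2 fold change -3.57, standard error 0.19, adjusted p = 3.7e-09). The aldolase gene fba1 (SPBC19C2.07) had 428 and 485 CPM in the libraries labelled 30°C and 50.9 and 58.2 CPM in those labelled 37°C (log2 fold change -3.06, adjusted p = 4.7e-09). For adh1 (SPCC13B11.01), the alcohol dehydrogenase gene that closes fermentation, the levels were 411 and 467 against 81.0 and 94.0 CPM (log2 fold change -2.33, adjusted p = 3.9e-08). In none of them did the labels overlap. The lowest value of the list belonged to one of the enolase genes, eno102 (-3.87), and the higher gene was gpm1 (SPAC26F1.06), for phosphoglycerate mutase, with 709 and 814 against 1527 and 1610.0 CPM (log2 fold change 1.04). The triose phosphate isomerase gene tpi1 (0.31) and adh4 (0.19) were not called. The median GC content of the list was 46.3%, far up among protein-coding genes, of which 1 in 5 has over 39.0%. With the offsets 7 of the 14 were still lower and gpm1 (2.49) and tpi1 (1.26) were higher, with a median of -0.94, and eno101 (-0.77), pyk1 (-0.94), adh1 (-0.95), pfk1 (-0.38), pgk1 (-0.054), hxk1 (-0.88) and gpd3 (-0.29) were no longer called.

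Translation elongation factor genes showed the same pattern and the same dependence. These factors carry aminoacyl-tRNA to the ribosome or move the ribosome along the message. Of 7 tested genes 6 were lower. The EF1A gene tef102 (SPAC23A1.10) had 164 and 201 CPM in the libraries labelled 30°C and 8.49 and 9.61 CPM in those labelled 37°C (log2 fold change -4.33, adjusted p = 6.4e-10), with tef101 at a log2 fold change of -3.64 and tef103 at -2.65. The tef genes of EF1A are near-identical copies. How reads that match several copies were counted is not given in the sources used here, so their separate values are uncertain. The EF2 genes eft201 and eft202 had -1.67 and -1.12, and tef3, for the fungal factor EF3, had -1.08. With the offsets 3 genes were still lower, tef102 (-2.63), tef101 (-2.26) and tef103 (-1.23), eft201 had -0.56, and the direction turned in tef3 (0.44) and eft202 (0.053). One gene of the list, tef5, for an exchange factor subunit, had 0.65 and was higher with the offsets (1.30).

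**Figure D3:**
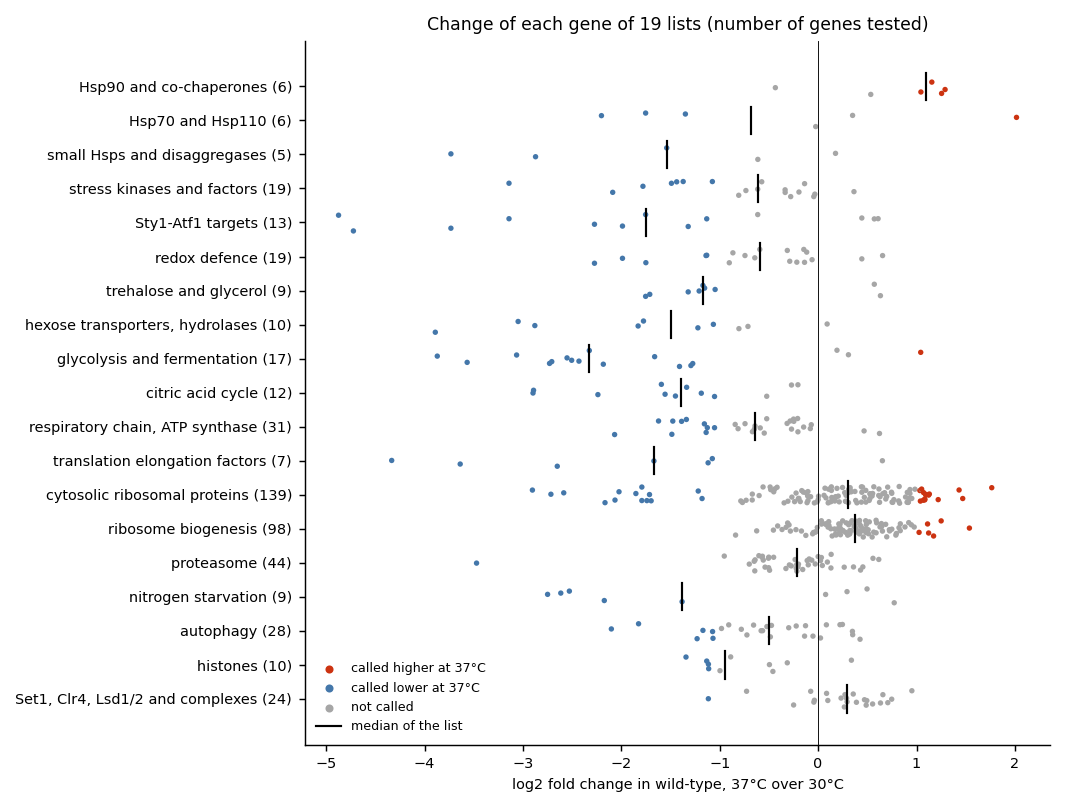
Log2 fold change of the libraries labelled 37°C over those labelled 30°C in wild-type for the members of 19 gene lists, each point a gene and each line the median of its list. The Sty1-Atf1 targets, glycolysis and elongation factors have medians of -1.75, -2.33 and -1.67, the Hsp90 group one of 1.10 and ribosome biogenesis one of 0.38.

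Genes that build and form ribosomes were not lower as a group. Of 139 genes in the list of cytosolic ribosomal proteins, 15 were higher and 14 lower, with 94 above 0 and a median log2 fold change of 0.30. Over all 6904 features 5.55% were higher, 15.9% lower and 3304 above 0. The list thus had a larger share of higher calls and a smaller share of lower calls than all features. The largest gain was that of rpl3402 (SPCC1322.15), for a protein of the large subunit, with 116 and 133 CPM in the libraries labelled 30°C and 426 and 417 CPM in those labelled 37°C (log2 fold change 1.76, adjusted p = 7.0e-09). It is one of a pair of genes for the same protein, and reads can be shared between such copies. Among the lower genes were rps001 (-2.90), rpl1802 (-2.72), rps1002 (-2.59), rpl801 (-2.17). With the offsets 70 were higher and 3 lower, so the split within this list rests on whether the GC trend is taken out.

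Ribosome biogenesis genes, which process and assemble the ribosomal RNA in the nucleolus, were higher in 6 of 98 cases and lower in none, and the median log2 fold change was 0.38 with 81 of the 98 above 0. The gene utp20 (SPBC56F2.04), for a component of the particle that processes small-subunit RNA, had 47.7 and 43.2 CPM in the libraries labelled 30°C and 137 and 127 CPM in those labelled 37°C (log2 fold change 1.54, adjusted p = 4.0e-07). The others were ytm1 (1.25), ppp1 (1.17), gar1 (1.12), noc1 (1.11) and utp13 (1.03). A count of 6 higher of 98 is near the 5.55% of all features that were called higher. Of 44 genes with the word proteasome in their annotated product 1 was called, fub2 (SPBP4G3.03), with 654 and 603 against 55.6 and 57.8 CPM (log2 fold change -3.47, adjusted p = 1.5e-11). Its product is annotated as a regulator of the PI31 family and not as a subunit. None of 5 ubiquitin genes was called, the nearest being the polyubiquitin gene ubi4 (-0.99, adjusted p = 2.1e-06).

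After pss1, the protein-coding genes with the largest gains by the rule for named genes belonged to no list used here, other than rpl3402. They were measured at moderate or low levels. The gene rhp18 (SPBC1734.06), for a ubiquitin ligase of postreplication repair, had 29.0 and 29.9 CPM in the libraries labelled 30°C and 115 and 108 CPM in those labelled 37°C (log2 fold change 1.92, adjusted p = 7.0e-09). The gene png1 (SPAC3G9.08), which the annotation gives as chromatin modification-related, had 19.1 and 18.6 against 71.0 and 65.3 CPM (log2 fold change 1.85). The gene otg1 (SPAC5H10.12c), for a galactosyltransferase of the secretory pathway, had 105 and 112 against 350.0 and 376 CPM (log2 fold change 1.74), and spc19 (SPCC1223.15c), for a subunit of the DASH complex that couples kinetochores to microtubules, had 7.56 and 9.46 against 28.9 and 27.5 CPM (log2 fold change 1.73). The annotated sorbose reductase gene SPAC8E11.10 had 33.6 and 40.0 against 132 and 121 CPM (log2 fold change 1.78), and SPAC8E11.08c, an uncharacterized gene, had 16.5 and 18.5 against 68.1 and 64.7 CPM (log2 fold change 1.93). The rest were mug68 (1.91), named for rising in meiosis, psu2 (1.92), annotated as a beta-glucosidase, SPCC569.04 (1.78) and SPAC17A5.19 (1.78). The last 3 were low, with 2.12 and 1.39 against 6.90 and 6.37 CPM for psu2, 1.53 and 1.43 against 4.97 and 5.21 CPM for SPCC569.04 and 1.64 and 2.10 against 6.28 and 6.55 CPM for SPAC17A5.19. In rhp18, psu2, otg1, mug68, SPAC8E11.08c and SPCC569.04 the annotation has at least 1 gene overlapping on the opposite strand, and the sources used here do not state whether this table was counted by strand, so reads of the partners cannot be told apart.

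Of the genes that fell most by the rule for named genes, hry1 (SPAC869.06c), for a protein with a cation-binding HHE domain, led. Its level was 275 and 236 CPM in the libraries labelled 30°C and 2.37 and 2.15 CPM in those labelled 37°C (log2 fold change -6.81, standard error 0.14, adjusted p = 1.3e-12). Next came the uncharacterized gene SPAC3G6.07, with 454 and 427 CPM in the libraries labelled 30°C and 6.79 and 9.49 CPM in those labelled 37°C (log2 fold change -5.77). In both genes the labels were far apart. The enolase gene eno102 above (SPBPB21E7.01c) and 3 more share a clone name: SPBPB21E7.10 had 255 and 225 against 4.30 and 5.37 CPM (log2 fold change -5.64), SPBPB21E7.11 had 4129 and 3525 against 87.5 and 96.7 CPM (-5.38) and SPBPB21E7.02c, of the phosphoglycerate mutase family, had 82.0 and 76.3 against 3.19 and 2.68 CPM (-4.74). The uncharacterized genes SPAC4F10.17, SPCC569.09, SPAC15E1.02c and SPCC1393.12 had log2 fold changes of -5.41, -5.33, -4.85 and -4.83.

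The annotated members of the same group were few. The gene mug14 (SPBC359.06), for an adducin-like protein, had 14875 and 13233 CPM in the libraries labelled 30°C and 476 and 474 CPM in those labelled 37°C (log2 fold change -4.89, standard error 0.16, adjusted p = 3.2e-11). In the annotation mug14 and SPCC1393.12 overlap another gene on their own strand, and SPBPB21E7.10, SPBPB21E7.11, fbp1 and cum1 one on the opposite strand, so part of their reads may be shared. The hydroxyacid dehydrogenase gene SPAC186.02c had 69.9 and 65.3 against 1.85 and 2.37 CPM (log2 fold change -5.01), cum1 (SPAC22G7.11c) had 516 and 457 against 17.2 and 18.1 CPM (log2 fold change -4.78), and fbp1 completes the 12. With the offsets their log2 fold changes lay between -6.83 and -4.44, so all 12 were still lower.

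Features other than protein-coding genes were called as well. Of 1367 tested lncRNAs 151 were higher and 214 lower, and of 841 antisense RNAs 80 were higher and 114 lower. These shares of lower calls are near or under the 15.9% of all features, while the shares of higher calls are above the 5.55% of all features. With the offsets the counts were 183 higher and 196 lower for lncRNAs and 101 and 99 for antisense RNAs. The antisense RNAs SPNCRNA.632, SPNCRNA.616 and SPNCRNA.1273 gained. SPNCRNA.616 had 7.90 and 9.08 CPM in the libraries labelled 30°C and 139.6 and 152 CPM in those labelled 37°C (log2 fold change 4.10, adjusted p = 1.9e-11), and SPNCRNA.1273 had 11.6 and 13.7 against 143 and 180.3 CPM (log2 fold change 3.67, adjusted p = 7.0e-09). SPNCRNA.632 had 2.42 and 1.46 against 35.2 and 39.5 CPM (log2 fold change 4.26). In all 3 the libraries labelled 37°C were far above the others, with the same limit on strand. The pseudogenes SPBCPT2R1.05c and SPAC212.05c went from 0.149 and 0.188 to 9.16 and 9.36 CPM and from 0.223 and 0.375 to 10.3 and 10.4 CPM. Both were under 0.4 CPM in the libraries labelled 30°C, and reads shared between them cannot be told apart.

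On the lower side, the lncRNA SPNCRNA.1255 had 92.0 and 83.9 against 2.16 and 2.43 CPM (log2 fold change -5.26, adjusted p = 8.6e-10), and the antisense RNAs SPNCRNA.1223 and SPNCRNA.1302 had log2 fold changes of -4.72 and -4.40. The feature SPMIT.07 of the mitochondrial genome had 6.63 and 6.94 against 0.438 and 0.0936 CPM. It was not matched to the annotation and stands here for that reason only, so it may be a protein-coding gene. Small RNA genes differed by class. Of 63 snoRNA genes 7 were higher and 4 lower (median 0.13), all 5 tested snRNA genes were lower, and 31 of 36 tRNA features and 23 of 40 rRNA features were lower, with 1 rRNA feature higher. The tRNA features were scarce, with a median level of 0.991 against 0.0597 CPM. With the offsets 6 tRNA features were higher and 20 lower, and 4 rRNA features were higher and 13 lower, and a filter at a mean of 50 counts, which removes most of these features, left 1 and 6 lower calls. The libraries were made from mRNA, which these classes largely are not, and their levels here need not follow those in the cell.

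The state of the cultures was described by lists that mark other states a cell of the culture could be in. Of 9 genes induced by nitrogen starvation 5 were lower and none higher, against 15.9% lower and 5.55% higher over all features. Their summed level was 429.5 and 434 CPM in the libraries labelled 30°C and 319 and 302 CPM in those labelled 37°C. The ammonium transporter gene amt1 (SPCPB1C11.01) had 12.7 and 13.8 CPM in the libraries labelled 30°C and 2.16 and 1.75 CPM in those labelled 37°C (log2 fold change -2.75, adjusted p = 2.6e-09). The oligopeptide transporter gene isp4 (-2.62), isp7 (-2.53), isp6 (-2.17), for a vacuolar protease, and ste11 (-1.38), for the factor that starts sexual differentiation, were the others, and put4 (0.076), amt2 (0.29), fnx1 (0.50) and isp5 (0.77) were not called. Of 16 mating and pheromone genes 1 was higher, ste6 (1.17), and 1 lower, ste11, and the sum was 807 and 805 CPM in the libraries labelled 30°C and 762 and 786 CPM in those labelled 37°C. Of 14 genes of meiosis and sporulation 2 were lower, mcp7 (-1.45) and mei4 (-1.19), with a sum of 543 and 488 CPM in the libraries labelled 30°C and 406 and 405 CPM in those labelled 37°C. The part that cells in such states have in the other results was not tested.

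Autophagy genes, which serve the recycling of cell contents in starvation and are also used in growing cells, were lower in 6 of 28 cases, a share not far from the 15.9% of all features, and higher in none. The kinase complex genes atg13 (-2.10) and atg1 (-1.82) were among them, and atg8 (SPBP8B7.24c), for the ubiquitin-like protein that coats the autophagosome, had 80.2 and 80.8 CPM in the libraries labelled 30°C and 33.6 and 38 CPM in those labelled 37°C (log2 fold change -1.17, adjusted p = 2.9e-08). Nutrient genes of other kinds were mixed. Of 35 amino acid biosynthesis genes 6 were lower, a share near the 15.9% of all features, and 1, his1, higher. With the offsets 3 were lower and 4 higher, and the median turned from -0.15 to 0.20. The isomeroreductase gene ilv5 (SPBC56F2.12), of the valine and isoleucine pathway, had 152 and 187 CPM in the libraries labelled 30°C and 19.6 and 21.0 CPM in those labelled 37°C (log2 fold change -3.06, adjusted p = 8.2e-09). Iron uptake genes shu1 (-2.86), for haem uptake, fip1 (-2.36), the permease, and sib2 (-1.55), of siderophore synthesis, were lower of 12 tested, while the repressor gene fep1 (0.16) was not called. Of 10 phosphate and thiamine genes tgp1 (-2.02) and pho1 (-1.15; -0.73 with the offsets, under the limit) were lower and thi4 (1.11) higher. Ergosterol genes erg11 (-2.13) and erg1 (-1.91), for lanosterol demethylase and squalene epoxidase, were lower of 18. The share of lower calls was not far from the 15.9% of all features for phosphate and thiamine genes and under it for ergosterol genes.

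Of 10 histone genes, against 15.9% of all features, 4 were lower, hhf1 (-1.34), htb1 (-1.13), hhf2 (-1.11) and hhf3 (-1.11), and 2 of them, hhf1 and hhf2, were lower with the offsets. The hhf genes are copies of one another, as are the hht genes, and reads can be shared within each set. Of 10 G1/S targets of the MBF factor, cdc22 (-1.16), for ribonucleotide reductase, was lower and rep2 (1.06) higher, and neither was called with the offsets (-0.59 and 0.97). Among 13 wall genes, gas2 (-1.21) was lower and gas5 (1.09) higher, and among 9 flocculin genes, pfl2 (-1.73) was lower and pfl9 (1.09) higher. The calls of gas2 (-0.50) and pfl2 (-0.77) were lost with the offsets. In the endoplasmic reticulum, the calnexin gene cnx1 (-1.45) was lower and the stress sensor gene ire1 (1.26) higher. None of the 13 Tf2 retrotransposon genes, which are near-identical copies, was called (median 0.68). Of 11 transporters of amino acids and ammonium, amt1, isp4 and per1 (-1.79) were lower and cat1 (1.10) higher.

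The genes of the enzymes under study differed between the labels by less than the limit. The methyltransferase gene set1 (SPCC306.04c) had 76.7 and 79.8 CPM in the libraries labelled 30°C and 105 and 95.6 CPM in those labelled 37°C (log2 fold change 0.36, adjusted p = 0.0031). The demethylase genes lsd1 (SPBC146.09c) and lsd2 (SPAC23E2.02) had 46.9 and 49.7 against 63.5 and 63.0 CPM (log2 fold change 0.39, adjusted p = 0.0027) and 45.7 and 48.7 against 60.0 and 55.6 CPM (log2 fold change 0.29, adjusted p = 0.0047). For clr4 (SPBC428.08c), of the H3K9 methyltransferase, the levels were 14.0 and 14.5 against 17.6 and 15.9 CPM (log2 fold change 0.23, adjusted p = 0.12). In all 4 genes both libraries labelled 37°C lay above both labelled 30°C, an order also found in 2903 of the 6904 features tested. Of the 24 genes of these enzymes and their complexes 1 was called, phf1 (SPCC4G3.07c), for a zinc finger partner of Lsd1 and Lsd2, with 4.58 and 4.13 against 1.88 and 2.15 CPM (log2 fold change -1.12, adjusted p = 0.0014; -0.92 with the offsets, under the limit). The median of the list was 0.29.

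The wild-type change was set beside that of the mutants, which do not share libraries with it, by testing the difference of the changes in the same fit. The wild-type change differed from that of lsd1-ΔHMG in 1274 features (18.5%), of which 831 had the higher value in the mutant and 443 the lower, and from that of set1Δ in 2540 (36.8%), 1303 higher and 1237 lower. The differences use the same wild-type libraries. Of the 1098 features lower in wild-type, 325 were also lower in lsd1-ΔHMG, of 722 lower there, and 273 in set1Δ, of 1441 lower there. Their median log2 fold change was -1.69 in wild-type, -0.63 for lsd1-ΔHMG and -0.19 for set1Δ, and the tested difference was upward in 597 and 728 of them. Of the 383 features higher in wild-type, 122 were also higher in lsd1-ΔHMG, of 309, and 146 in set1Δ, of 790, with medians of 1.29, 0.67 and 0.77 and a tested downward difference in 109 and 112. As these sets were chosen by the wild-type values, medians nearer 0 in other libraries are in part fixed by the choice. The same holds for the counts of tested differences in these sets, which subtract the same wild-type values.

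The change of chaperone genes differed from wild-type by list. All 5 small heat shock and disaggregase genes had tested upward differences in both mutants, with medians of -1.54 (wild-type), 1.03 (lsd1-ΔHMG) and 2.43 (set1Δ). For hsp16 the difference was 3.90 (adjusted p = 3.3e-08) in lsd1-ΔHMG and 7.34 (adjusted p = 4.6e-11) in set1Δ. In the other lists the upward difference was called in 3 of 6 (lsd1-ΔHMG) and 4 of 6 (set1Δ) Hsp70 and Hsp110 genes and 2 and 4 of 6 genes of the Hsp90 group. It was called in 3 and 3 of 9 J protein and exchange genes, with 2 downward in set1Δ, and in 2 and 2 of 10 chaperonin genes. Over all 6904 features it was called in 831 for lsd1-ΔHMG and 1303 for set1Δ, so the chaperonin count in set1Δ is near that share. The Hsp110 gene pss1, which rose in wild-type, had log2 fold changes of 2.22 in lsd1-ΔHMG and 2.14 in set1Δ, with differences from wild-type of 0.20 (adjusted p = 0.33) and 0.12 (adjusted p = 0.54). The Hsp90 gene was called in both mutants (1.91 in lsd1-ΔHMG and 2.91 in set1Δ) and not in wild-type, and the difference was 2.35 (adjusted p = 7.6e-07) and 3.35 (adjusted p = 7.7e-09). All 6 genes of the Hsp90 group were higher at 37°C in each mutant, with medians of 1.87 and 2.70.

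The stress and carbon lists had medians nearer to or above 0 in the mutants, except sugar uptake and hydrolysis in lsd1-ΔHMG. Of the 13 Sty1-Atf1 targets 10 had a tested upward difference in each mutant, and the medians were -0.13 in lsd1-ΔHMG and 0.096 in set1Δ. The gene fbp1 had log2 fold changes of -2.08 in lsd1-ΔHMG and -0.52 in set1Δ. Its mean level at 30°C was already low in these strains, with 738 and 67.8 CPM against 6563 CPM for wild-type. Without the offsets, the medians for glycolysis were -0.48 and 0.45, for the citric acid cycle -0.11 and 0.30, and for sugar uptake and hydrolysis -1.48 and -0.95 against -1.50 in wild-type. The lists did not share the low start of fbp1. The median level of the glycolysis genes at 30°C was 2105 CPM (lsd1-ΔHMG) and 793 CPM (set1Δ) against 274 CPM (wild-type). For the citric acid cycle it was 322 and 124 against 149 CPM, and for sugar uptake and hydrolysis 81.5 and 19.5 against 108 CPM. At 37°C the glycolysis medians were 1538 and 1249 against 45.0 CPM. The transporter gene ght5 was lower in all 3 strains (wild-type -1.77, lsd1-ΔHMG -2.53, set1Δ -2.53). The gene mug14 was lower in wild-type and lsd1-ΔHMG and higher in set1Δ (-2.92 and 4.79). The antisense RNAs SPNCRNA.616, SPNCRNA.632 and SPNCRNA.1273 rose in all 3 strains, SPNCRNA.616 by log2 fold changes of 4.82 in lsd1-ΔHMG and 5.18 in set1Δ. The snoRNA genes had a median of 0.13 in wild-type but of -1.17 and -1.72 in the mutants.

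**Figure D4:**
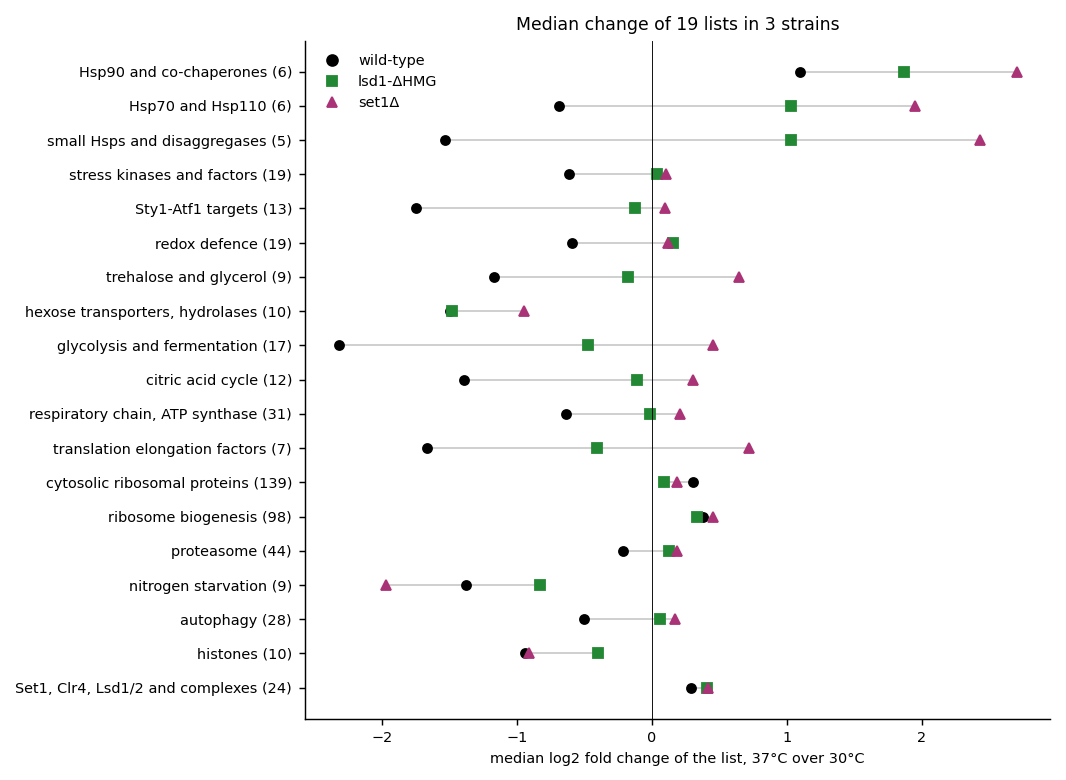
Median log2 fold change of the libraries labelled 37°C over those labelled 30°C for 19 gene lists in the 3 strains, 1 point per strain. The small heat shock list stands at -1.54 for wild-type, 1.03 for lsd1-ΔHMG and 2.43 for set1Δ, while sugar uptake and hydrolysis is below 0 in all 3 strains.

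The wild-type change also followed base composition. The Pearson correlation between GC content and the log2 fold change was -0.209 across the 5104 protein-coding genes with a GC value (genes are no independent replicates), and it was 0.030 with the offsets. When the genes were ordered by GC content and cut into 5 bins of equal size, the bin with the highest GC content, 39.0% to 53.8%, was the lowest: the median log2 fold change was -0.47, with 331 genes lower and 44 higher. In the other 4 bins the medians lay between -0.029 and 0.12, with 51 to 155 genes lower. Of the 383 features called higher 355 were also higher with the offsets, and of the 1098 called lower 867 were also lower. Why the change followed GC content was not tested.

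**Figure D5:**
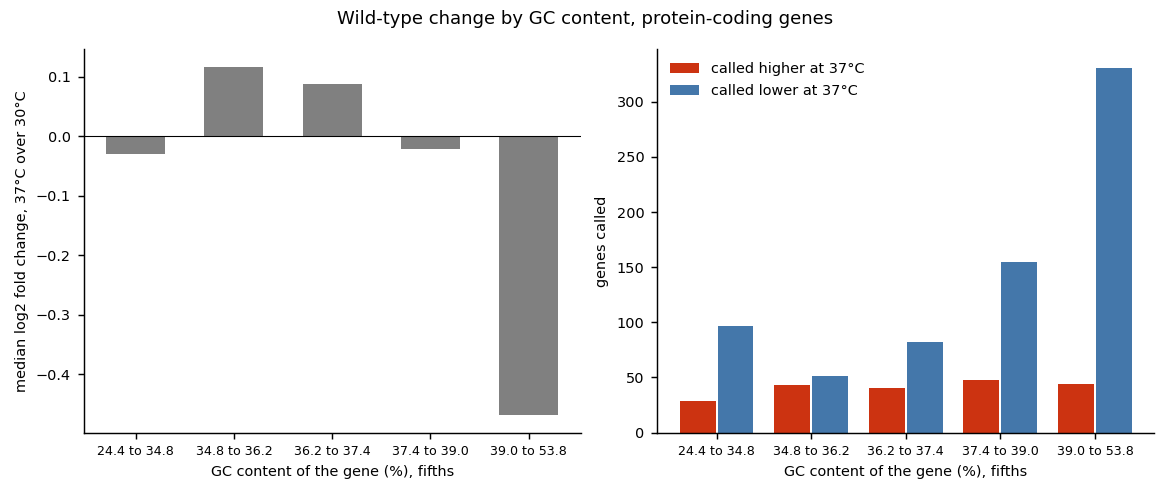
Wild-type protein-coding genes in 5 bins of equal size by GC content (percent, x axis): the median log2 fold change of the libraries labelled 37°C over those labelled 30°C, and the number of genes called higher and lower in each bin. The bin with the highest GC content has a median of -0.47 and 331 lower calls.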

How the data were processed

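The authors deposited a table of expected counts per feature, not normalized and fractional because a read that falls on more than 1 feature is split. It covers the 3 strains at both temperatures. Per the labels and the study's methods, reads were trimmed with Trimmomatic 0.39, aligned with STAR to the ASM294v2 build and counted with featureCounts with its fraction option over gene features. Whether this table was counted by strand is not given in the sources used here. The table held 7268 features, and 22 value columns were not used. Libraries of clr4Δ and lsd2-ΔC were not used here.

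The values were rounded to whole counts and fitted with edgeR 4.0.16 in R 4.3.3: TMM normalization, the filterByExpr filter, a mean for each of 6 conditions over all 12 libraries, a robust quasi-likelihood fit and Benjamini-Hochberg adjustment over 6904 features. Library totals are given in the report, and the precision is that of 2 libraries per condition. All 12 libraries share one estimate of spread. The difference of a mutant's change from that of wild-type was tested as an interaction. The fit was also tested on simulated data. Names, GC content and length came by gene ID from the RefSeq annotation of ASM294v3, which matched 6846 features (94.2%). As this is not the build of the files, no coordinates or sequences are given.

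The named genes are the 12 protein-coding genes with the highest and the 12 with the lowest log2 fold change among called features whose mean over the wild-type libraries is 50 counts or more and whose groups do not overlap, 5 and 5 other features by the same rule, 5 and 5 with the largest differences shared by both mutants, hsp16, set1, lsd1, lsd2, clr4 and the members of the lists. Features not matched to the annotation were counted among the other features, whatever they encode. The members and lists were chosen with earlier results of these data known. In the list of ribosomal proteins the symbols rpp1, rpp21 and rpp40 matched RNase P and RNase MRP subunits, none of them called. In the list of enzymes the symbol spp1 matched a DNA primase gene, and gas2 stands in both the wall and the endoplasmic reticulum list. Of the listed names 4 were not found. Alternatives were RLE, upper-quartile and protein-coding TMM factors, DESeq2 1.42.0, limma-voom (limma 3.58.1), which the study used, other filters and fold limits, the compared libraries alone, a replicate block, offsets for each library's trend with GC content and length (splines with 5 degrees of freedom each), and leaving out each library. Tables and plots were made in Python 3.11.15 with pandas 2.3.3, matplotlib 3.10.9 and numpy 2.4.6.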

Additional observations from a re-analysis of the deposited data

Results flagged for a closer look

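Results are listed here because the change between temperatures differed between strains by edgeR's test of the difference itself, with the value in a mutant minus that in wild-type on the log2 scale. The difference was called in 1274 features for lsd1-ΔHMG and in 2540 for set1Δ. The gene hry1 had 5.17 in lsd1-ΔHMG and 6.92 in set1Δ, after the lowest log2 fold change of the named genes in wild-type, -6.81. For SPBPB21E7.02c, of the phosphoglycerate mutase family, the values were 5.09 in lsd1-ΔHMG and 5.14 in set1Δ, for SPCC569.09 they were 4.90 in lsd1-ΔHMG and 4.98 in set1Δ, for SPAC4F10.17 4.36 in lsd1-ΔHMG and 5.81 in set1Δ, and for SPBPB21E7.11 4.28 in lsd1-ΔHMG and 5.43 in set1Δ. These 5 genes fell in wild-type and their log2 fold changes were between -1.64 and 0.40 in the mutants. At the 30°C label, however, all 5 already had lower mean levels in both mutants than in wild-type. For hry1 these means were 256 CPM (wild-type), 18.6 CPM (lsd1-ΔHMG) and 1.23 CPM (set1Δ). For SPBPB21E7.11 they were 3827, 217 and 56.9 CPM in the same order, against 92.1, 101 and 59.3 CPM at 37°C. The differences of these genes thus go with high levels in the wild-type libraries labelled 30°C, and the reason was not tested. The heat marker hsp16 had differences of 3.90 in lsd1-ΔHMG and 7.34 in set1Δ.

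In the other direction, the pseudogenes SPBCPT2R1.05c and SPAC212.05c, whose reads cannot be told apart, had -4.40 in lsd1-ΔHMG and -4.17 in set1Δ and -3.75 in lsd1-ΔHMG and -3.55 in set1Δ. Both rose in all 3 strains. The mean of SPBCPT2R1.05c at 30°C was 0.168 CPM (wild-type), 3.31 CPM (lsd1-ΔHMG) and 1.77 CPM (set1Δ), against 9.26, 8.44 and 5.31 CPM at 37°C. The differences of these pseudogenes thus go with very low levels in the wild-type libraries labelled 30°C. The lncRNA SPNCRNA.877 had -3.94 in lsd1-ΔHMG and -4.64 in set1Δ, with 8.53 and 6.57 against 33.4 and 33.6 CPM at the 2 labels in wild-type, where it rose (log2 fold change 2.15). For SPNCRNA.242 the differences were -3.84 in lsd1-ΔHMG and -3.76 in set1Δ, and its wild-type value of 0.81 was not called. The small nucleolar RNA snoZ5, which overlaps another feature on its own strand, had -3.02 in lsd1-ΔHMG and -3.26 in set1Δ and 4.84 and 5.86 against 17.7 and 14.5 CPM in wild-type. SPNCRNA.877, SPNCRNA.242 and snoZ5 also had higher means at 30°C in both mutants than in wild-type. For SPNCRNA.242 these were 57.2 CPM (lsd1-ΔHMG) and 87.7 CPM (set1Δ) against 11.6 CPM (wild-type). The differences of both mutants rest on the same 4 wild-type libraries, so they are not independent of each other.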

How the results depend on the processing

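The number of features called in wild-type depended most on the fold limit. With a log2 limit of 2 it was 448 (45 higher, 403 lower), and with no limit 4990 (2308 higher, 2682 lower). The differences from wild-type were called in 290 features for lsd1-ΔHMG and 798 for set1Δ with the limit of 2, and in 3836 and 5008 with none. Under the other scalings, tests, filters and sample choices, the wild-type count stayed between 1327 and 1548, with DESeq2 at 1473 and limma-voom at 1482. Replicate numbers did not pair the wild-type libraries with each other (correlation of deviations 0.0057 over a single pair of conditions). Over the other pairs of conditions this correlation ran from -0.26 (wild-type at 30°C with set1Δ at 37°C) to 0.52 (wild-type at 37°C with lsd1-ΔHMG at 30°C). Some structure by replicate number is thus shared between conditions. With the replicate block 1481 features were called in wild-type, 382 higher and 1099 lower. The differences were then called in 1277 features for lsd1-ΔHMG and 2550 for set1Δ.

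Leaving out 1 library at a time gave 1415 to 1550 calls in wild-type, 359 to 488 higher and 962 to 1147 lower, and 1216 to 1358 and 2464 to 2601 for the differences of lsd1-ΔHMG and set1Δ. Without replicate 1 labelled 37°C, 157 calls were lost and the median of all features moved by 0.10, and without the other libraries 43 to 108 were lost. The lone library left in a condition is then assumed to vary like the others.

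Offsets for GC content and gene length reversed tef3 (0.44, also with the replicate block) and eft202 (0.053, and 0.052 with the block), and changed the split of calls as given in the report; the cause was not tested. With the 2 settings that use offsets, 62 values of single named genes lost the call and 24 gained it while 876 were the same, against 3 and 16 with 4326 the same under the other settings apart from leaving out a library. At totals of 27642384 counts or more, features of under 1 CPM rest on few reads, and 2 libraries per label limit the precision.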
